A study of Mus musculus with 8 samples.

Results

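The comparison of epithelium with stroma in the wild-type uterus lays out how transcripts are divided between the lining of the organ and the tissue beneath it. Its members are the 1769 genes that the authors' deposited table lists for these spots, out of 5828 genes listed across the 4 tables of the series, and they were taken whole, with no filter added. The data come from Visium, in which a tissue section lies on a slide printed with barcoded capture spots and every RNA molecule is read out with the spot it was caught on. The wild-type (WT) mice were EZ fl/fl, with both Ezh2 alleles floxed and no Cre, on a mixed C57BL/6 and 129SvEv background, and 4 such females each gave 1 uterus. The other genotype of the series, Ezh2cKO (KO below), was EZ fl/fl; Prcre/+, with Cre expressed from the progesterone receptor locus, and also had 4 uteri. Each of 4 litters gave 1 female of either genotype. All were ovariectomized at postnatal day 71 ± 4 and their uteri were taken at day 112 ± 11, so both groups lacked ovarian hormones.

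A mouse uterus is lined by a single layer of columnar epithelial cells, which folds inward to form glands. These cells are sealed to each other by junctions, rest on a basement membrane, move ions and calcium, and secrete defence proteins into the lumen. The stroma below is a loose tissue of fibroblasts that lay down collagen and proteoglycans, crossed by blood vessels and immune cells, with smooth muscle on its outside. Estrogen and progesterone act on both layers through nuclear receptors, and the layers signal to each other through Wnt, hedgehog, insulin-like growth factor and fibroblast growth factor pathways.

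The deposited values pool the 4 WT uteri, so each gene has 1 value in epithelium and 1 in stroma, and no replicate check over animals is possible. A UMI (unique molecular identifier) marks 1 captured RNA molecule. UMI sums recovered from the deposited averages came to 1061353 in the epithelium pool and 416097 in the stroma pool over the 1769 genes, with a median of 241 and 95 UMIs per gene. After scaling by size factors the epithelium pool was 2.54 times as deep. A gene with equal levels in both thus has about 2.54 times as many UMIs in epithelium, and the folds below are corrected for this. Intervals in brackets are exact 95% Clopper-Pearson intervals of the counts and cover counting error only. A gene is called where the adjusted p of the authors' deposited table is under 0.05, and that test may run over spots, with the differences between animals left out. A spot can hold several cells, so epithelial spots can contain stroma and the reverse, and fewer cells of a type and less RNA per cell cannot be told apart. The way the spots were named is not given in the sources used here, and a gene used for it is no finding.

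Most genes of the table had similar levels on both sides. The median log2 ratio of epithelium over stroma was 0.02, with quartiles at -0.48 and 0.45, and 1383 genes (78.2%) lay within 2-fold. The table calls 509 of its 1769 genes (28.8%), of which 231 (13.1% of the table) stood higher in epithelium and 278 (15.7%) in stroma. The epithelial side had the longer tail of large ratios, with 23 genes at 8-fold or more against 9 on the stromal side. The median called gene differed 2.81-fold in epithelium and 2.39-fold in stroma, and the smallest called difference was 1.54-fold. Genes called higher in epithelium made up 13.4% of the UMIs of the epithelium pool and 4.93% of those of the stroma pool. The genes called higher in stroma made up 5.88% and 16.1%.

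A gene is in the table when its average is above 1 in at least 1 pool, which takes about 177 UMIs in epithelium and 69 in stroma. Such a gene enters with a ratio that favours the pool where it is high. The 1045 genes with an average above 1 in both pools do not depend on this, and among them 68 (6.51%) had an epithelial and 89 (8.52%) a stromal call. Counts of listed members below are descriptions of the listed genes for that reason.

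**Figure D1:**
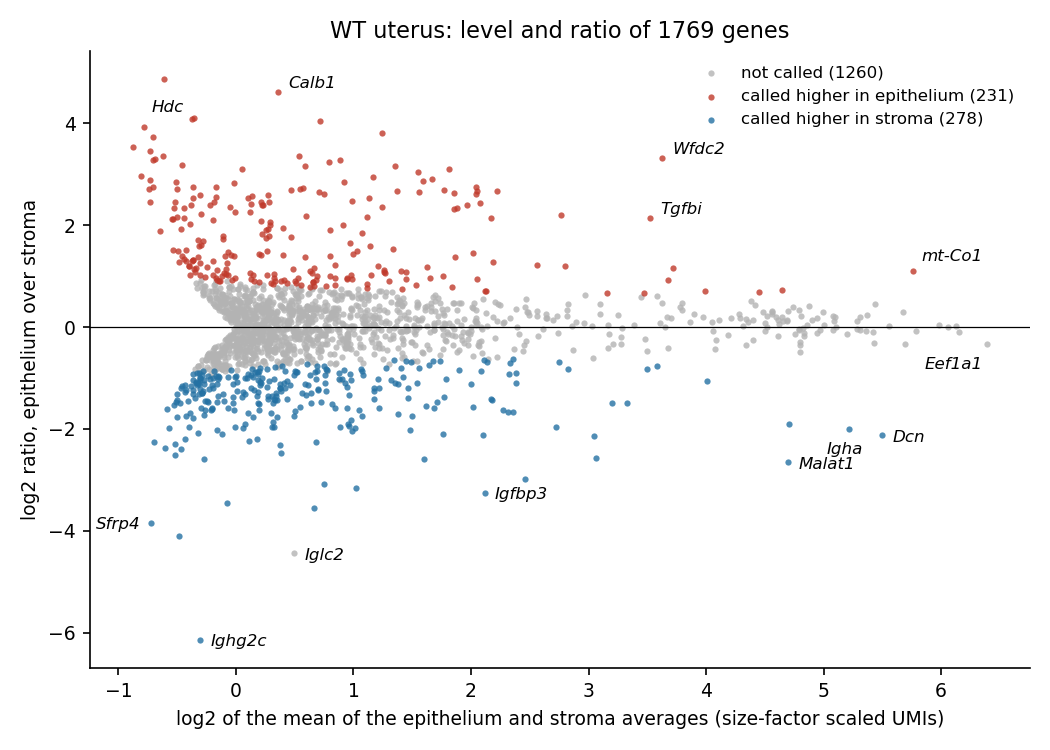
Log2 ratio of epithelium over stroma (vertical axis) against level (horizontal axis, log2 of the mean of both averages) for the 1769 genes of the WT table, coloured by the authors' call. Called genes fan out on both sides at low levels, and at the highest levels most genes lie near 0, with Wfdc2 and Tgfbi above and Malat1, Dcn and Igha below.

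The spots named epithelium carried the structural genes of a simple epithelium. Of 15 listed keratin and cell adhesion genes, epithelium was higher by call in 14 and stroma in none, with a median log2 ratio of 2.60. Of the 15, 13 are listed through the epithelium pool alone. Only Spint2 was called of the 2 with an average above 1 in both pools, and their median was 1.06. Together the 15 made up 0.767% of epithelial UMIs and 0.140% of stromal ones. St14, the membrane serine protease matriptase, had 193 and 5 UMIs, which is 15.2-fold higher in epithelium (6.40 to 47.3). Its stromal count was thus lower than those of the keratins below.

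Keratins are the intermediate filaments of epithelial cells and work as pairs. Krt8 had 924 UMIs in epithelium and 44 in stroma (8.26-fold, 6.10 to 11.4), and its partner Krt18 had 941 and 51 (7.26-fold, 5.47 to 9.82). The genes of this pair stand next to each other on chromosome 15, Krt8 at 101996698 to 102004482 on the minus strand and Krt18 at 102028180 to 102032027 on the plus strand (GRCm38), and their counts ran almost equal in both pools. Claudins form the seal of tight junctions: Cldn3 was 8.62-fold higher in epithelium (6.51 to 11.6), Cldn10 5.57-fold (4.07 to 7.81) and Cldn7 5.52-fold (3.71 to 8.57). Tjp1, a scaffold of tight junctions that endothelial cells and fibroblasts also use, was the 1 member of the list without a call, with 207 and 98 UMIs and a log2 ratio of -0.27.

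The promoters of several of these genes hold the letters CACCTG, or CAGGTG on the other strand, an E-box that the repressors Snail and ZEB are known to bind in epithelial promoters. The 4 promoters of Epcam, Krt18, Spint2 and Rab25, chosen after their motifs were seen, are printed from the RefSeq table (GRCm38.p6), with the motif in capitals and each read along its gene's strand. They begin 250 bases before the RefSeq start and end at it, or earlier where an annotated exon begins.
Epcam: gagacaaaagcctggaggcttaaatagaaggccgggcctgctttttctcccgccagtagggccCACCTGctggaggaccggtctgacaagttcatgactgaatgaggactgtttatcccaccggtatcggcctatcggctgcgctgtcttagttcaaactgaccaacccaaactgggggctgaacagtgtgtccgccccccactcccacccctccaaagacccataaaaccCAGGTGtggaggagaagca
Krt18: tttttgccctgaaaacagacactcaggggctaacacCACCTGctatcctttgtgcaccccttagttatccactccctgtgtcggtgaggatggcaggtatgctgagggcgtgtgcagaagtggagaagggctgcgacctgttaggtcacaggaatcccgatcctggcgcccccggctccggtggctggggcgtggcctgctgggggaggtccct
Spint2: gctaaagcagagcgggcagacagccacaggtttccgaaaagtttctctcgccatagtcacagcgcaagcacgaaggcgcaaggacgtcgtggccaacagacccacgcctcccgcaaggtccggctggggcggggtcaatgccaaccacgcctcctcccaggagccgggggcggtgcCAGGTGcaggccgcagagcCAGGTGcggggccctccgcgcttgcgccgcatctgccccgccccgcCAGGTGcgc
Rab25: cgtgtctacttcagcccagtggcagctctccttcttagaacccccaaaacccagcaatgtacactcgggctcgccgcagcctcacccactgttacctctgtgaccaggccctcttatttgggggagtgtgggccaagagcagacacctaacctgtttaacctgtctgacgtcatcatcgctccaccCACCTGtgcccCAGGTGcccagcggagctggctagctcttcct

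The Epcam stretch is chr17:87635729-87635978 on the plus strand, with the motif beginning 187 and 19 bases before the start. That of Krt18 is chr15:102027966-102028179 on the plus strand, with 1 motif at 214 bases. The Spint2 stretch is chr7:29281978-29282227 on the minus strand and has 3 motifs, at 74, 55 and 9 bases. That of Rab25 is chr3:88548301-88548529 on the minus strand, with motifs at 64 and 53 bases. Epcam, an adhesion molecule of epithelial cells, had 664 UMIs in epithelium and 45 in stroma (5.80-fold, 4.29 to 8.04). Spint2, an inhibitor of membrane serine proteases such as matriptase, had 1162 and 87 (5.25-fold, 4.22 to 6.61). Rab25, an epithelial GTPase of membrane recycling, had 180 and 9 (7.87-fold, 4.05 to 17.5). The choice of these genes fixed that all 4 have an epithelial call.

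Over the table, promoters were read from 250 bases before to 50 after the RefSeq start, on both strands. A RefSeq promoter was found for 173 of 227 protein-coding genes called in epithelium (76.2%) and 194 of 266 called in stroma (72.9%), under the 80% needed, so the check is void as a statement about either set. Among the promoters found, CACCTG was in 50 (28.9%) of those of epithelial genes, 23 (11.9%) of those of stromal genes and 127 of 1012 (12.5%) of those of uncalled genes. It was in 20.2% of all 32851 promoters of that table, which include many genes not in the WT table. The motif CCAAT was in 39.3%, 39.7% and 38.7% of the same 3 sets and in 37.4% of all promoters, so those shares lay close together. TATAAA was in 8.67%, 14.4% and 8.30%, and in 13.6% of all promoters. For motifs added after the data were seen, in the order of epithelial, stromal, uncalled and all promoters, TGANTCA was in 6.94%, 6.70%, 5.04% and 7.81%, AACCNGGTT in 0.578%, 0.515%, 0.0988% (1 promoter in each of these sets) and 0.271%, and the CArG box in 2.89%, 3.09%, 1.78% and 1.63%. A match describes letters in a window and not a bound site.

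Secreted defence proteins formed another group on the epithelial side, with 6 of 8 listed members called higher in epithelium and none in stroma. Through the epithelium pool alone 5 of the 8 are listed, and of the 2 with an average above 1 in both pools Wfdc2 was called (median log2 ratio 1.14, against 2.76 for the 8). Wfdc2, a small protease inhibitor of mucosal secretions, was the most abundant, with 3980 UMIs in epithelium and 157 in stroma (9.97-fold, 8.50 to 11.8). Lbp, which binds bacterial lipopolysaccharide, had 593 and 24 UMIs (9.72-fold, 6.47 to 15.3). Its co-receptor Cd14, listed with the macrophage genes, had 198 and 18 UMIs and was 4.33-fold higher in epithelium (2.67 to 7.45), so both genes of lipopolysaccharide recognition stood on that side. Clca1, a secreted modifier of mucus and chloride channels, was 7.10-fold higher (4.36 to 12.4), and the complement component C3 2.59-fold (1.77 to 3.91). The exceptions in the list had no call: Lyz2, a lysozyme of myeloid cells (214 and 174 UMIs), and Clu (131 and 70), with log2 ratios of -1.05 and -0.44.

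Several enzyme and calcium-binding genes had more than 10 times the level of stroma in epithelium. Hdc, which makes histamine from histidine, had 262 UMIs in epithelium and 6 in stroma (17.2-fold, 7.79 to 47.2). Bcat1, the cytosolic transaminase of branched-chain amino acids, had 548 and 13 UMIs (16.6-fold, 9.62 to 31.3). Calcium buffers lay in the same tail: Calb1 had 436 and 7 UMIs (24.5-fold, 11.8 to 61.3) and S100g, the small calbindin, 782 and 22 (log2 ratio 3.81, interval of the fold 9.17 to 22.4). In contrast, S100a6 had 1462 and 563 UMIs and a log2 ratio of 0.03, and the calmodulin gene Calm2 a log2 ratio of -0.17, both without a call. Of 15 listed annexin, S100 and calcium-binding genes 4 were called higher in epithelium and none in stroma, and the list median was 0.04, which turned to -0.03 when scaled by ribosomal protein genes.

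Genes of the sodium pump were split between the layers. The pump is built of a catalytic alpha and a beta subunit and is tuned by small FXYD proteins. Of its 9 listed genes, 4 had an epithelial and 4 a stromal call. Epithelium was higher in the beta subunit Atp1b1 (326 and 38 UMIs, 3.37-fold, 2.41 to 4.86) and in the regulators Fxyd3 (898 and 56 UMIs, 6.31-fold) and Fxyd4 (995 and 52, 7.53-fold). Stroma was higher in the regulators Fxyd1 (2.53-fold), Fxyd5 (2.22-fold) and Fxyd6 (1.86-fold). Atp1b3 had no call. The median of this list was -0.53 and turned to 0.46 over those members whose average was above 1 in both pools, so it gives no direction for the family as a whole.

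Other transport genes were divided in the same manner. Car2, the carbonic anhydrase that supplies bicarbonate, was 6.09-fold higher in epithelium (511 and 33 UMIs, 4.28 to 8.95), as was the potassium channel Kcnk1 by 5.30-fold (3.33 to 8.95). The water channel Aqp1, a gene of blood vessels, was 4.60-fold higher in stroma (47 and 85 UMIs, 3.18 to 6.71), and the chloride channel Ano1 3.20-fold. Among 10 listed solute carriers 5 were called in epithelium and 2 in stroma. Slc7a11, which imports cystine for glutathione, was 5.47-fold higher in epithelium (3.43 to 9.22), and Slc39a4, a zinc importer, 4.21-fold (2.91 to 6.30). Slc38a2, a glutamine carrier, was 1.69-fold higher in stroma.

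Glutathione and metal defence genes had calls in both directions, with 9 of 24 called higher in epithelium and 4 in stroma. Of all 1769 genes, 13.1% were called in epithelium and 15.7% in stroma, so the stromal share of this list was close to that of all genes. Among the 16 members with an average above 1 in both pools, Gsto1, Mt1 and Mt2 were called in epithelium and Selenom and Selenop in stroma. The metallothioneins, which bind zinc and copper, stood well above stroma in epithelium: Mt1 had 1985 and 170 UMIs (4.59-fold, 3.93 to 5.40) and Mt2 1271 and 78 (6.41-fold, 5.10 to 8.16). Gsto1, an omega-class glutathione transferase, had 1101 and 70 UMIs (6.19-fold). Gstm7 (4.81-fold), Gsta4 (3.75-fold) and Gstm2 (3.58-fold) were also higher in epithelium. Reads of the close Gstm paralogs may be shared between genes, so these values are uncertain. The 4 members called in stroma were Gpx3, Selenop, Gstt1 and Selenom. Gpx3, the secreted glutathione peroxidase, had 63 and 209 UMIs and was 8.43-fold higher in stroma (6.33 to 11.4), Selenop, the selenium carrier, 3.19-fold (2.80 to 3.62), Gstt1 2.77-fold and Selenom 2.30-fold.

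Energy metabolism genes differed by smaller folds. Of 71 listed nuclear genes of the respiratory chain, 4 were called higher in epithelium and none in stroma. Cox5a was 2.20-fold higher, Ndufc2 2.12-fold, Atp5md 1.99-fold and Ndufa12 1.87-fold. The list median was 0.28, and its share of UMIs was 3.46% in epithelium and 2.87% in stroma. Of the 10 mitochondrially encoded genes mt-Co1 (13090 and 2405 UMIs, 2.14-fold, 2.05 to 2.24) and mt-Cytb (1.61-fold) were called higher in epithelium. Other transcripts of the same genome were not: mt-Co2 had a log2 ratio of -0.49, mt-Co3 of 0.02 and mt-Atp6 of 0.30. None of the 10 was called in stroma. Among 11 glycolytic genes Ldhb (2.09-fold) and Tpi1 (1.79-fold) were called higher in epithelium, with none in stroma. All 11 had a higher value in epithelium, with a median log2 ratio of 0.61. So had all 6 listed genes of the tricarboxylic cycle, with a median of 0.63 and 1 call.

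Lipid genes had calls on both sides. Scd2, a fatty acid desaturase, was 2.34-fold higher in epithelium (1470 and 247 UMIs), Elovl5, an elongase, 2.81-fold, and Acsl4, which activates arachidonate, 2.80-fold. Cyb5r3, the cytochrome b5 reductase that feeds electrons to desaturases, had 1296 and 116 UMIs and was 4.40-fold higher (3.63 to 5.36). Apoe, the lipid carrier, was 4.42-fold higher in stroma (541 and 940 UMIs, 3.97 to 4.92).

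**Figure D2:**
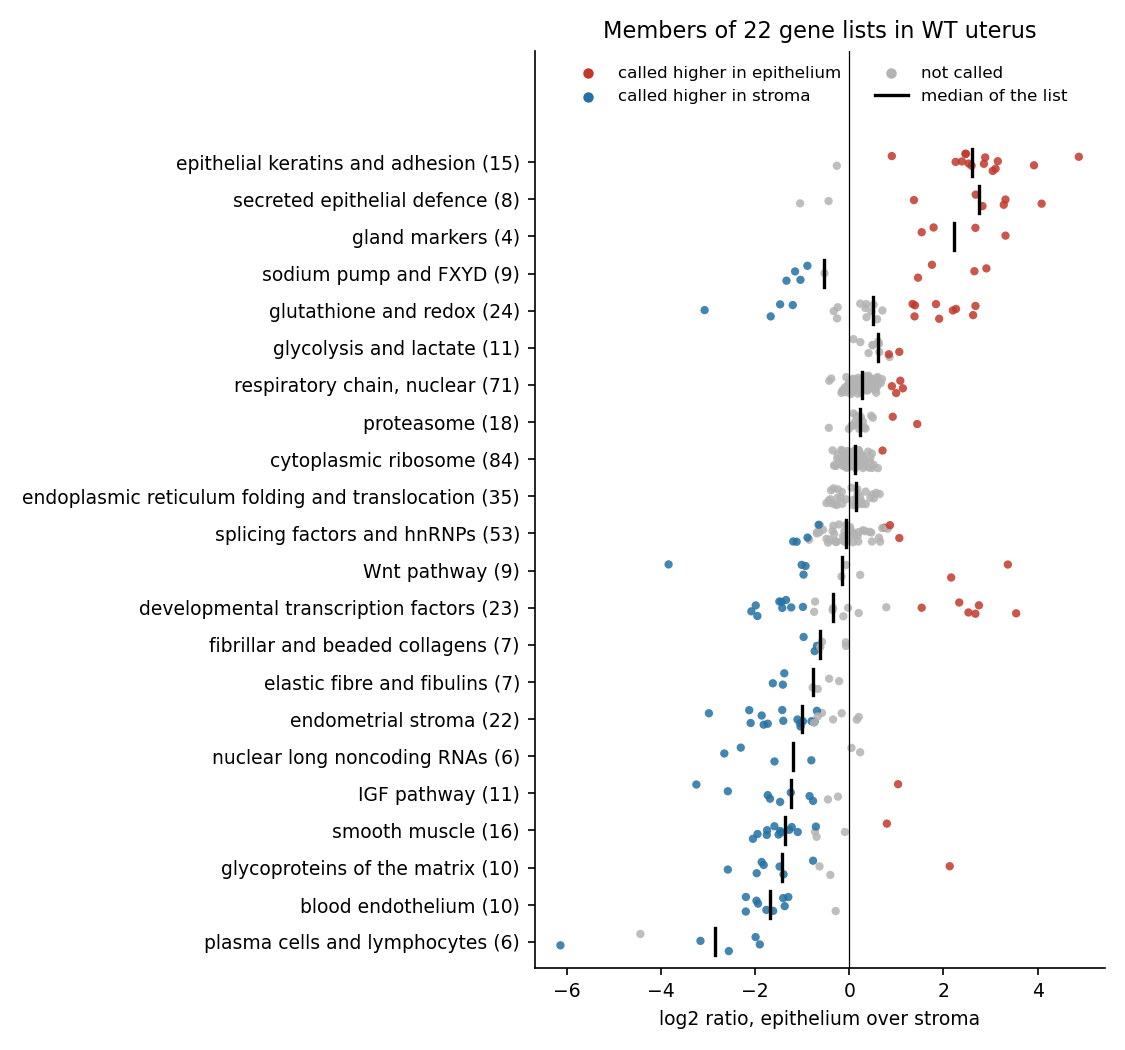
Log2 ratio of epithelium over stroma for each listed member of 22 gene lists, with 1 point per gene coloured by the authors' call and a black bar at the list median. Number of members is in brackets. Ribosomal, reticulum and splicing genes crowd near 0, while the sodium pump, Wnt, redox and transcription factor lists hold called genes on both sides.

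The machinery for making proteins was near balance. Of 84 cytoplasmic ribosomal genes 1 was called, higher in epithelium, and the list median was 0.12. These 84 genes took 38.2% of the epithelial and 36.5% of the stromal UMIs. None of 35 genes for protein folding and translocation in the endoplasmic reticulum was called (median 0.14), although the epithelium is a secretory layer. Calr had a log2 ratio of 0.16, P4hb of 0.25 and Hsp90b1 of -0.16. Among 31 translation factors Pabpc1, the poly(A)-binding protein, was called higher in stroma (1440 and 1005 UMIs, 1.77-fold, 1.64 to 1.92), whereas Eef1a1, with 13137 and 6535 UMIs, had no call and a log2 ratio of -0.34. The lists of 20 chromatin regulators (1 called, Arid1b, 2.06-fold higher in stroma) and 53 splicing factors (3 called in epithelium and 4 in stroma) were also mostly uncalled.

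Of 21 listed Golgi coat and Rab genes 3 were called in epithelium and 1 in stroma, where the whole table has 13.1% and 15.7%, and none of the 11 with an average above 1 in both pools was called. Sec23b, a coat protein of vesicles that leave the reticulum, had 533 and 52 UMIs and was 4.03-fold higher in epithelium (3.03 to 5.47), and Vamp8, which drives granule release, was 2.02-fold higher. The 3 listed enzymes that build sugar chains, each listed through the epithelium pool alone, were called there: Gcnt2 (4.07-fold), St6galnac2 (2.50-fold) and Ugp2 (1.88-fold). In the lysosome list 5 of 27 were called in epithelium and 2 in stroma. Atp6v1a, a subunit of the proton pump, was 3.80-fold higher in epithelium. The proteases Ctsh (2.67-fold) and Ctsd (1727 and 294 UMIs, 2.31-fold) stood on the epithelial side and Ctsl (1.61-fold) on the stromal side, with Ctsb uncalled at 1451 and 416 UMIs.

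On the stromal side the fibroblast list had 15 of 22 listed members called higher in stroma, 12 of them among the 16 with an average above 1 in both pools, and none in epithelium. Dcn, the small proteoglycan decorin that coats collagen fibrils, was the most abundant, with 2986 UMIs in epithelium and 5135 in the shallower stroma pool (4.37-fold, 4.18 to 4.57). Vim, the filament of mesenchymal cells, was 4.28-fold higher (3.62 to 5.07), and Pdgfra, the receptor of stromal fibroblasts, 2.65-fold (2.19 to 3.20). Epithelial spots still held 28.1 Dcn UMIs per 10000, against 123 in stromal spots. Other fibroblast markers showed no such gap: Thy1 had 519 and 183 UMIs with a log2 ratio of 0.16, and Osr2, a stromal transcription factor, had 558 and 281 with -0.36, neither called.

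Calls among matrix genes were mostly on the stromal side. Col1a2 was 1.67-fold higher in stroma (1.43 to 1.95), Col3a1 1.61-fold (1.42 to 1.84) and Col16a1 1.96-fold, while Col1a1 (log2 ratio -0.58), Col6a1 (-0.07) and Col6a2 (-0.08) had no call. None of the 3 collagen calls passed an adjusted p under 0.01 in the authors' deposited table, or a minimum absolute log2 ratio of 1. Of 10 listed glycoproteins of the matrix 7 were called in stroma and 1, Tgfbi, in epithelium. Through the stroma pool alone 4 of the 10 are listed, and over the 6 with an average above 1 in both pools the median log2 ratio was -0.70, close to the -0.60 of the 6 such collagens. Of those listed through stroma alone, Smoc2 had 42 and 99 UMIs (5.99-fold, 4.14 to 8.81), Matn2 133 and 205 (3.92-fold), Ccdc80 95 and 136 (3.64-fold) and Dpt, dermatopontin, 154 and 214 (3.53-fold). Fn1, fibronectin, had no call (log2 ratio -0.63). Of 7 elastic fibre genes Ltbp4 (3.09-fold), Fbln1 (2.66-fold) and Mfap5 (2.61-fold) were called in stroma.

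A few matrix genes stood on the epithelial side. Tgfbi, a secreted adhesive protein, had 3312 UMIs in epithelium and 297 in stroma (4.39-fold, 3.89 to 4.96), which placed it among the most abundant called genes there. Sdc4, a membrane heparan sulfate proteoglycan, had 700 and 54 UMIs (5.10-fold, 3.86 to 6.86). In the basement membrane, the sheet that both layers share, the laminin chain Lama5 was 2.63-fold higher in epithelium (187 and 28 UMIs, 1.76 to 4.06), whereas Col4a1 (2.13-fold), Col4a2 (2.20-fold) and Nid1 (2.30-fold) were higher in stroma, and Lamb2 and Hspg2 had no call. None of the 4 basement membrane genes with an average above 1 in both pools was called. Lama5, like Sdc4, is listed through the epithelium pool alone, and Col4a1, Col4a2 and Nid1 through the stroma pool alone. Col4a1 and Col4a2 are also made by vessel walls. The collagen Col18a1 had equal levels, with 710 and 280 UMIs and a fold of 1.00.

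Of 16 listed enzymes that cut the matrix and their inhibitors 8 were called in stroma, 2 (Ctsh and Ctsd) in epithelium and 6 in neither. Ctsh is listed through the epithelium pool alone, and Adamts5 and Adamts1 through the stroma pool alone. Adamts5 had 38 and 77 UMIs (5.15-fold, 3.45 to 7.81) and Adamts1 67 and 124 (4.70-fold, 3.47 to 6.43). Both cut proteoglycans, and Timp3, which inhibits that family of enzymes, was 2.96-fold higher in stroma too (362 and 422 UMIs, 2.57 to 3.42).

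Smooth muscle and blood vessel genes stood with the stroma. Of 16 listed smooth muscle genes 12 were called higher in stroma, 9 of the 16 being listed through the stroma pool alone. Cald1 was 4.14-fold higher (3.33 to 5.16), Myh11 3.87-fold (90 and 137 UMIs, 2.94 to 5.11), Mylk 3.37-fold and Myl9 3.36-fold. Actn1, a non-muscle actinin that many cells use, was the member called in epithelium (1.74-fold). Among 10 blood endothelium genes 9 were called in stroma, all through the stroma pool alone. Cldn5, the claudin of endothelium, was 4.59-fold higher (72 and 130 UMIs, 3.42 to 6.21), Cav1 3.93-fold and Cd34 3.84-fold. Claudins therefore had members called on opposite sides. Rgs5, the listed pericyte gene, was 3.11-fold higher in stroma. No marker of lymphatic vessels or of nerve was among the listed genes, and neither was Foxa2 of glands or Foxj1 of ciliated cells. The stromal spots are thus a mixture, and how far each stromal gene comes from fibroblasts, muscle or vessels was not tested.

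Antibody transcripts took a visible share of the stromal pool. The plasma cell list took 2.06% of stromal and 0.483% of epithelial UMIs, and 5 of its 6 listed genes were called higher in stroma. Igha, the heavy chain of IgA, had 2640 and 4133 UMIs (3.98-fold, 3.79 to 4.18), Jchain, which links IgA into dimers, 430 and 999 (5.91-fold, 5.27 to 6.63), and Igkc 1955 and 2877 (3.74-fold). Ighg2c, an IgG heavy chain, had 4 UMIs in epithelium and 111 in stroma (70.5-fold, 26.8 to 263). Iglc2 had 22 and 188 UMIs, 21.7-fold higher in stroma (13.9 to 35.5), yet was not called: the authors' deposited table gives it an adjusted p of 0.0667. It and Lyz2 (2.07-fold) were the 2 genes past 2-fold without a call. Immunoglobulin constant genes resemble each other, so Iglc1 and Iglc2 may share reads.

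Red cell genes moved the same way: Hba-a2 had 14 and 94 UMIs, Hba-a1 28 and 121, and Hbb-bs 44 and 204, between 11.0-fold and 17.1-fold higher in stroma. All 3 were called, and all 3 are listed through the stroma pool alone. At an adjusted p under 0.01 in the authors' deposited table, 1 of these calls was kept. Hba-a1 and Hba-a2 are near-identical copies and their split is uncertain. For genes of macrophages and antigen presentation no stromal call was made among 6 listed, though their median log2 ratio was -0.63. Cd14 alone had a higher value in epithelium. Cd74 had 479 and 275 UMIs with a log2 ratio of -0.55.

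**Figure D3:**
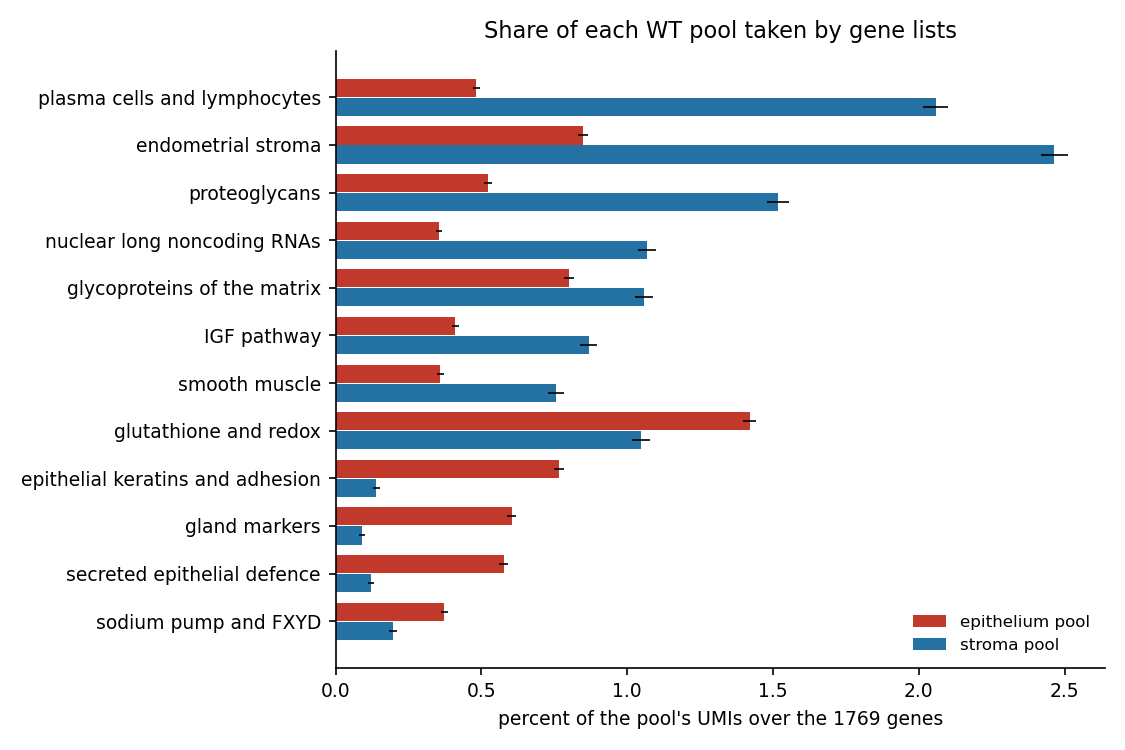
Percent of each WT pool's UMIs taken by 12 gene lists, with exact 95% intervals that cover counting error only (black lines) and bars for the epithelium pool (red) and the stroma pool (blue). Plasma cell genes take 2.06% of stromal and 0.483% of epithelial UMIs, and keratin and adhesion genes 0.140% and 0.767%.

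Chemokine and complement genes were mainly stromal, with 6 of 9 called there and 2 in epithelium. Cxcl12, which retains lymphocytes and precursor cells, had 219 and 682 UMIs (7.92-fold, 6.79 to 9.26). The first proteases of the classical complement cascade, C1s1 (2.14-fold) and C1ra (2.00-fold), and their inhibitor Serping1 (2.45-fold) were higher in stroma, whereas C3, on which the cascade converges, was higher in epithelium. Cxcl14 had 528 and 66 UMIs and was 3.15-fold higher in epithelium (2.43 to 4.13). Interferon-responsive genes were split: Ifitm3 (3219 and 566 UMIs, 2.24-fold) and Ifitm1 (1.89-fold) were higher in epithelium, while B2m (906 and 632 UMIs, 1.77-fold), Ifi27l2a (3.88-fold), H2-Q7 (2.74-fold) and Bst2 (1.77-fold) were higher in stroma. Ifitm2, a neighbour of the same family, had no call at 893 and 388 UMIs. H2-Q7 belongs to a set of near-identical class I genes and is uncertain.

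The insulin-like growth factor pathway was mainly stromal, with 8 of 11 listed members called higher in stroma, 4 of them among the 6 with an average above 1 in both pools. The ligand Igf1 had 68 and 89 UMIs (3.33-fold, 2.40 to 4.63). Its binding proteins were higher by 9.52-fold for Igfbp3 (146 and 547 UMIs, 7.92 to 11.5), 5.99-fold for Igfbp5 (154 and 363, 4.95 to 7.28) and 1.71-fold for Igfbp7, while Igfbp4 had no call at 1090 and 588 UMIs. The insulin receptor gene Insr was 3.22-fold higher in stroma (2.29 to 4.54). Irs1, the adaptor that these receptors phosphorylate, was the member called in epithelium (224 and 43 UMIs, 2.05-fold, 1.47 to 2.91). Igf1, Igfbp3, Igfbp5 and Insr are listed through the stroma pool alone, and Irs1 through the epithelium pool alone. Among the 6 members with an average above 1 in both pools the stromal calls were Htra3, Igf1r, Igfbp6 and Igfbp7. The median log2 ratio of these 6 was -0.81, against -1.25 for the 11. The call of Irs1 was lost at an adjusted p under 0.01 in the authors' deposited table.

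Receptors for other paracrine signals had calls on both sides. Frizzled receptors bind Wnt ligands: Fzd10 (210 and 8 UMIs, 10.3-fold, 5.15 to 24.2) and Fzd6 (205 and 18, 4.48-fold) were higher in epithelium, and Fzd1 (132 and 102, 1.96-fold) and Fzd2 (172 and 129, 1.91-fold) in stroma. The secreted antagonists Sfrp4 (14 and 79 UMIs, 14.3-fold, 8.06 to 27.4) and Sfrp2 (2.02-fold) were higher in stroma. All 4 frizzled genes and Sfrp4 are listed only through the pool where they are higher. With an average above 1 in both pools there were 4 of the 9 listed Wnt genes, and Sfrp2 alone was called of these. Wnt5a, with 206 and 91 UMIs, and Axin2, a feedback target of the pathway, with 192 and 79, had log2 ratios of -0.17 and -0.06 and no call. Fgfr2, the receptor that epithelia use for stromal fibroblast growth factors, was 3.46-fold higher in epithelium (255 and 29 UMIs, 2.35 to 5.27). Kitl, the ligand of the receptor KIT, was 2.06-fold higher in stroma. Fgfr2 and Kitl, too, are each listed only through the pool where they are higher.

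In the hedgehog pathway the receptor Ptch1, itself a target of the signal, was 2.13-fold higher in stroma (191 and 160 UMIs, 1.72 to 2.64), and the effector Gli1 had 180 and 113 UMIs, a log2 ratio of -0.67 and no call. For TGF-beta signalling 4 of 11 members were called in stroma, where the whole table has 15.7%. These were the modulator Fstl1 (3.00-fold), the receptors Tgfbr2 (2.66-fold) and Tgfbr3 (2.00-fold), and the ligand Gdf10 (2.03-fold). Fstl1, Tgfbr2 and Tgfbr3 are listed through the stroma pool alone. Among the 6 members with an average above 1 in both pools, Gdf10 was called in stroma and Id2 in epithelium. Id2, a target gene of BMP signals, was 2.30-fold higher in epithelium (572 and 98 UMIs, 1.85 to 2.87), whereas its relative Id3 had no call (log2 ratio -0.33).

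The receptors of the withdrawn ovarian hormones were not called on either side. Esr1, estrogen receptor alpha, had 849 UMIs in epithelium and 427 in stroma, with a log2 ratio of -0.35, and Pgr, the progesterone receptor, had 257 and 90 with 0.17. The authors' deposited table gives adjusted p of 0.40 for Esr1 and 1 for Pgr. Nr3c1, the glucocorticoid receptor, was called higher in stroma, with 116 and 128 UMIs (2.80-fold, 2.16 to 3.64). Fkbp4, a chaperone partner of steroid receptors, was 2.18-fold higher in epithelium (581 and 105 UMIs, 1.77 to 2.71). Sult1d1, a sulfotransferase, had 366 and 24 UMIs (6.00-fold, 3.97 to 9.49) there. Of the 12 genes in this list 3 were called in each direction. Nr3c1 is listed through the stroma pool alone and Sult1d1 through the epithelium pool alone.

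Developmental transcription factors had calls on both sides, with 6 of 23 called in epithelium and 9 in stroma. Over the whole table these shares are 13.1% and 15.7%. Through the epithelium pool alone 5 of the 23 are listed, and through the stroma pool alone 9. Among the 9 with an average above 1 in both pools, Msx1 and Sox17 were called in epithelium and Hoxa10, Nr2f2 and Tcf4 in stroma. On the epithelial side were the neighbouring homeobox genes Dlx6 (178 and 6 UMIs, 11.7-fold) and Dlx5 (240 and 14, 6.74-fold, 3.94 to 12.5), which lie on chromosome 6 at 6863334 to 6868568 and 6877805 to 6882085 (GRCm38), Msx1 (1432 and 88 UMIs, 6.40-fold, 5.16 to 8.03) and the epithelial ETS factor Ehf (5.78-fold). Sox17, which glands and also endothelium express, was 2.90-fold higher in epithelium (664 and 90 UMIs). On the stromal side were Meis2 (54 and 90 UMIs, 4.24-fold), Prrx1 (3.97-fold), the E-protein Tcf4 (480 and 732, 3.88-fold, 3.45 to 4.36), Tbx3 (2.81-fold) and the orphan receptor Nr2f2 (436 and 461, 2.69-fold, 2.35 to 3.07), a regulator of stromal progesterone signals. Gata2, a target of the progesterone receptor, had 324 and 74 UMIs with a log2 ratio of 0.78 and no call.

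Of 9 listed cell cycle genes 1 was called in epithelium, 4 in stroma and 4 in neither. Over the whole table the shares called are 13.1% in epithelium and 15.7% in stroma. Of the 3 with an average above 1 in both pools, Btg1 alone was called, in stroma. Ccnd1 is listed through the epithelium pool alone, and Gas1, Cdkn1c and Cdkn1b through the stroma pool alone. Ccnd1, cyclin D1, had 338 and 35 UMIs and was 3.80-fold higher in epithelium (2.68 to 5.55), while Ccnd2 had no call (243 and 64 UMIs, log2 ratio 0.58), nor had Cdk4 (412 and 97 UMIs, 0.74) and Pcna (226 and 62, 0.52). Higher in stroma were Gas1 (3.13-fold), Cdkn1c, which encodes p57 (75 and 91 UMIs, 3.08-fold, 2.25 to 4.24), Btg1 (2.29-fold) and Cdkn1b, which encodes p27 (2.16-fold). Of the clock genes Nr1d1 (2.21-fold) and Nr1d2 (1.82-fold) were called in stroma and Dbp, Tef and Per3 in neither. Immediate-early genes, which respond within minutes to handling of tissue, had 4 of 8 called in stroma. These were Klf2, which also responds to blood flow (4.03-fold), Ier5 (2.39-fold), Klf4 (2.36-fold) and Zfp36l1 (1.90-fold). Jun (log2 ratio -0.01) and Jund (-0.37) had no call. Nr1d1, Klf2, Ier5 and Klf4 are listed through the stroma pool alone.

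RNAs that stay in the nucleus were higher in stroma. Malat1 had 1256 and 3118 UMIs (6.31-fold, 5.91 to 6.74), Kcnq1ot1 77 and 150 (4.95-fold, 3.74 to 6.61), Xist 205 and 243 (3.01-fold, 2.49 to 3.65) and Neat1 312 and 215 (1.75-fold, 1.47 to 2.09). Gas5 and Snhg8, noncoding host genes of small nucleolar RNAs, had log2 ratios of 0.05 and 0.23 and no call. The 6 genes of this list made up 1.07% of stromal and 0.355% of epithelial UMIs. The summed level of these RNAs was thus higher in the stromal pool, alongside the stromal calls, and its part in them was not tested. Kcnq1ot1 is annotated as antisense, and whether the counting used strand is not given in the sources used here.

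Called stromal genes were also longer. The span from the first to the last annotated base (GENCODE M21) had a median of 34.9 kb over 266 protein-coding genes called in stroma, 15.2 kb over 227 called in epithelium and 14.5 kb over 1245 uncalled genes. When the 1738 protein-coding genes were put into 5 groups by span, the genes called in stroma numbered 32 of 349, 41 of 346, 35 of 348, 45 of 347 and 113 of 348, from the shortest group (9.17%) to the longest (32.5%). The share called in epithelium was 13.8%, 15.9%, 9.20%, 14.7% and 11.8%. The rise was thus in the group above 50.7 kb and on the stromal side, where the median log2 ratio was -0.45, against 0.14 in the shortest group. The group holds Tcf4 (346 kb), Arid1b (353 kb), Mylk (257 kb) and Meis2 (203 kb). Among genes with an average above 1 in both pools the medians were 26.4 kb in stroma and 9.10 kb in epithelium. This property was examined after the data were seen. What lies behind it was not tested.

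**Figure D4:**
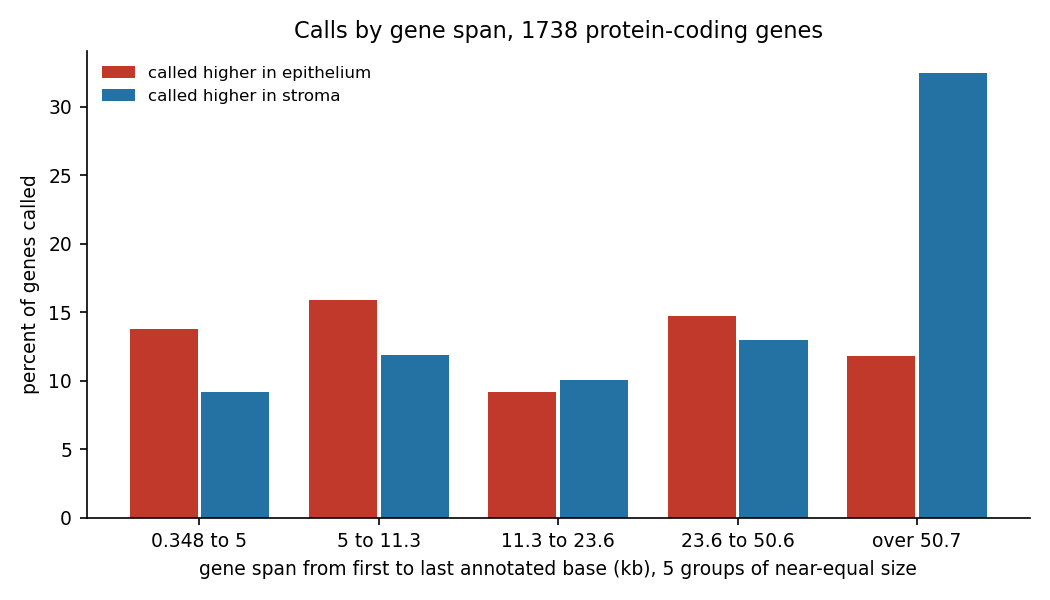
Percent of protein-coding genes called higher in epithelium (red) or stroma (blue) in the WT table, for 5 groups of near-equal size by gene span in kb. The share called in stroma is 32.5% in the longest group and 9.17% in the shortest, while the epithelial share stays between 9.20% and 15.9%.

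The KO uteri are other animals in which spots were given the same names, and 1737 of the 1769 genes are in their table too. Of 229 genes called in WT epithelium, 227 had a higher value in KO epithelium than in KO stroma, and 109 were called there. Of 257 genes called in WT stroma, 256 had the same direction in KO, and 99 were called. Among the 1251 genes without a WT call the direction was the same for 985 (78.7%). The KO ratios were smaller for 226 of the 229 and 252 of the 257 genes, with medians of 0.82 in KO against 1.49 in WT for epithelial genes, and 0.74 against 1.24 for stromal genes. These genes were chosen by their WT ratio, which the KO ratio was not, and the difference between genotypes was not tested.

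The exceptions in direction were Bst2, with log2 ratios of -0.82 in WT and 0.19 in KO, Emc6, with 1.28 and -0.13, and Slc1a5, with 1.00 and -0.16. The keratin and adhesion list had a median of 2.60 in WT and 1.50 in KO. Bcat1 went from 16.6-fold to 1.73-fold, whereas Smoc2 was 5.99-fold and 5.82-fold higher in stroma and Tmsb4x 1.65-fold and 1.72-fold higher in epithelium. The values run from nearly equal to several-fold smaller in KO.

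**Figure D5:**
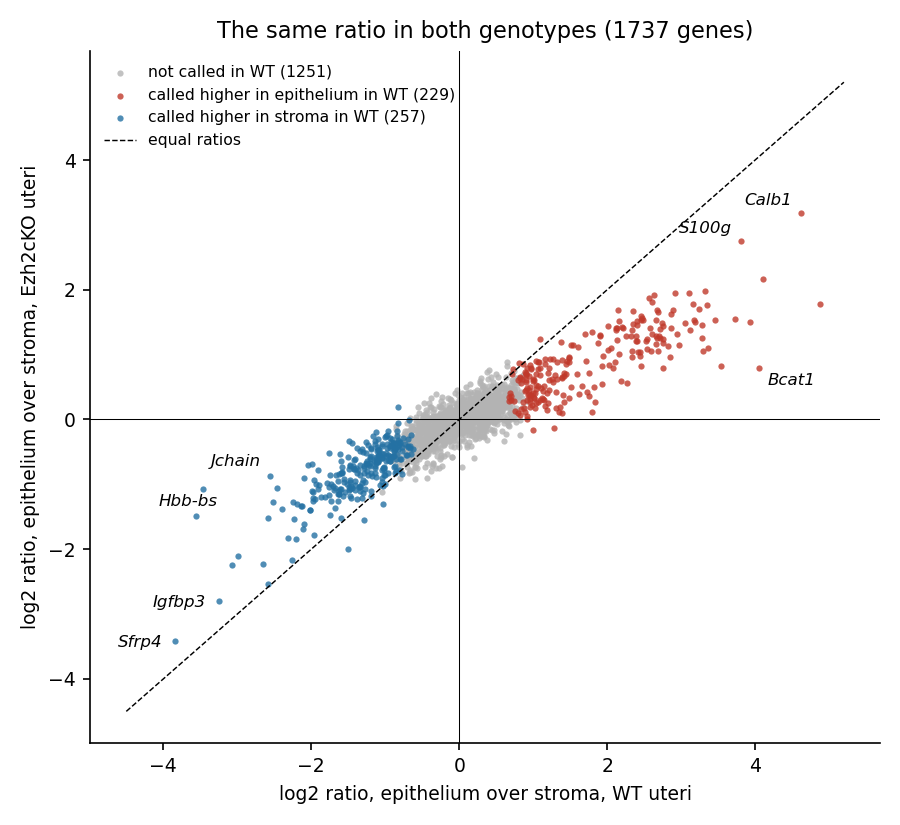
Log2 ratio of epithelium over stroma in WT uteri (horizontal axis) and Ezh2cKO uteri (vertical axis) for the 1737 genes in both tables, coloured by the call in WT, with a dashed line where both ratios are equal. Of the genes called in WT, 227 of 229 epithelial and 256 of 257 stromal ones have the same direction in KO, and most lie nearer to 0 there.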

How the data were processed

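Cryosections of 10 µm from the uteri were put on Visium slides, per the labels' protocols. The genome was GRCm38, per the submitters' processing notes. Which aligner, which rule for naming spots and which test were used is not given in the sources used here. Per the file headers, the authors' deposited table holds an average per group (a signal of size-factor scaled UMIs), a log2 fold change and an adjusted p-value for each gene. Both pools' UMI sums were recovered from these: the deposited log2 fold change is the log2 ratio of the sums plus 1, each over its size factor sum plus 1, and 100% of sums lay within 0.01 of whole numbers. Folds are ratios of the sums over the size factor sums, without a pseudocount. The WT contrast was tested by no model here, since animals are pooled. On simulated data for this contrast (1769 genes, 200 changed), 100% of sums were recovered. The 95% intervals held the true value for 96.5% of genes without a change, for 93% at 2-fold and for 92% at 4-fold. Those simulated counts held counting error alone, as the intervals assume, so this coverage does not extend to differences between spots or animals. In the real data 651 of the 1260 uncalled genes had an interval that excluded a fold of 1.

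The members and the 57 gene lists were chosen with earlier results of these data known. Named genes are, per list, up to 4 called members per direction with the largest ratio (at least 30 UMIs) and up to 3 uncalled members of the highest level, plus the 15 called genes per direction of highest level, the 10 of largest ratio (at least 100 UMIs), and called members of divided families. Unnamed gene models and immunoglobulin variable segments were left out. Epcam, Spint2, Emc6 and genes below the listing threshold were named after their values were seen. Some genes that this rule selects are not reported here. Alternatives were another threshold, a minimum ratio, level filters and other scalings. Positions came from GENCODE M21 (1769 of 1769 genes matched). A planned comparison of protein sequences was not run. Python 3.11.15, NumPy 2.4.6, SciPy 1.17.1, pandas 2.3.3 and matplotlib 3.10.9 were used.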

Additional observations from a re-analysis of the deposited data

How the results depend on the processing

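Of the 1326 genes left without the lowest 25% by level, 327 were called, 144 of them epithelial and 183 stromal. Of the 1045 genes with an average above 1 in both pools, 157 were called, 68 in epithelium and 89 in stroma. Both settings test fewer genes by construction. The median span of epithelial genes was 9.10 kb in the second setting, against 15.2 kb. An adjusted p under 0.01 in the authors' deposited table kept 385 calls (177 and 208), and a minimum absolute log2 ratio of 1 kept 384 (179 and 205). The share of calls on the epithelial side was between 43.3% and 46.6% in these settings and 45.4% in all. Scaling by all listed genes, by ribosomal protein genes or to the median gene shifted the median gene by -0.005, -0.071 and -0.019 log2 units. All 322 genes that the naming rule selects stayed within their counting intervals when scaled by all listed genes, centred or read as the deposited log2. Ribosomal scaling turned the sign of the list medians of filaments and tubulins, annexins, mitochondrially encoded genes, translation factors and lysosome, each within 0.07 of 0 before. Among genes above 1 in both pools 26 of 48 list medians moved past their counting error. The sign turned for polarity (0.77 to -0.36), filaments and tubulins, the sodium pump and lysosome, and medians came nearer 0 for keratins and adhesion (2.60 to 1.06), secreted defence (2.76 to 1.14), matrix glycoproteins (-1.44 to -0.70) and blood endothelium (-1.69 to -0.29, with 1 gene left).

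No paired analysis was possible because the deposited averages pool the 4 uteri of a genotype, and for the same reason no animal could be left out. Depth limits stroma most: a gene of average 1 has about 69 UMIs there and 177 in epithelium.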

Other observations

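Genes that stay under an average of 1 in both WT pools are not in the table of this comparison, but a WT epithelium value is given for 4052 of them in the authors' deposited table of KO against WT epithelium. The highest had 177 UMIs, just under the threshold. Several textbook genes of uterine epithelium, named after their values were seen, lie there. The ligand Wnt7a had 170 UMIs, the hedgehog ligand Ihh 104 and the Wnt ligand Wnt4 30. The keratin Krt7 had 161 and the claudins Cldn1 and Cldn4 144 and 110. Among epithelial transcription factors Klf5 had 160 UMIs, Elf3 158, Pax8 113 and Grhl2 84, and the splicing regulator Esrp1 had 142. The stem cell receptor Lgr5 had 79 and the mucin Muc1 48. Their stromal values were not analysed here, so they say nothing of the division between layers.

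In the stroma 13 genes had a WT value under the threshold, at most 68 UMIs. Among these were the lymphatic chemokine Ccl21a with 38 UMIs in stroma and 39 in epithelium, and the matrix genes Tnxb with 68 and 93 and Spon2 with 60 and 85. Bpifb5, a secreted epithelial protein, had 17 UMIs in stroma and 121 in epithelium.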
